A study of Mus musculus with 6 samples.

Results

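B cell lineage genes were examined in sorted T follicular helper (Tfh) cells: Ebf1, Pax5, Ms4a1, Cd79a, Cd79b, Fcer2a, Cr2, Cd22 and Bank1. All peaks that carry 1 of these 9 symbols in the deposited annotation were taken, which gave 87 of 282898 peaks, in 7 of the 9 genes. The measurement was ATAC-seq, in which a transposase cuts open chromatin and attaches sequencing adaptors. There were 6 libraries of untreated C57BL/6 mouse cells, 1 for each genotype and population: Stat6 knockout (KO) Tfh4, Tfh214 and Tfh21, and Stat6 wild type (WT) Tfh4, Tfh214 and Tfh21. For each genotype 10 mice supplied the populations, which were isolated by flow cytometry, and 50000 cells went into each library. What defines the populations, the kind of Stat6 allele, the age of the mice and the tissue were not given in the sources used here, and the comparisons have no replicate of any group.

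Tfh cells help B cells in the follicles of lymphoid organs and touch them there, so B cell genes are a usual check on B cells carried along in a sort. Ebf1 and Pax5 are transcription factors that set and hold the B cell fate; Cd79a and Cd79b encode the signalling chains of the B cell receptor, and Cd22 and Bank1 encode a receptor that restrains it and a scaffold for its signals. Ms4a1 (CD20), Fcer2a (CD23, the low-affinity IgE receptor) and Cr2 (CD21, a complement receptor) mark mature B cells, and Fcer2a is known to be induced in B cells by IL-4 through STAT6. In an expressing cell, the start site of a gene is usually open.

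Values are CPM (read counts scaled to the same library total) as deposited, from which whole reads were recovered. The libraries held 798555 to 1373218 reads in peaks, and 27.6% to 36.4% of them lay in peaks annotated to a transcription start site (TSS, at most 999 bases upstream of a start). No listed peak had fewer than 10 reads in all, so a gene with weaker signal is not listed and no limit can be set for it. All 20 T cell genes had a start-site peak, with a median of 56.5 reads in the strongest one. Of all 19109 genes with a peak 13799 had one, with a median of 115 reads. The strength of start sites thus does not check the T cell label. Per kb of listed peak, T cell genes held a median of 91.4 reads, against 56.6 for all genes. Bcl11b (1485 reads) and Cd247 (1425 reads) led the T cell list in total. Of 10 Tfh genes 8 had a start-site peak, with a median of 166 reads, and Tox2 (884 reads) and Btla (745 reads) led the Tfh list. Stat6 itself had 6 peaks, with 68, 51 and 57 reads in KO Tfh4, KO Tfh214 and KO Tfh21, against 58, 69 and 51 in WT Tfh4, WT Tfh214 and WT Tfh21, which checks no genotype label because the deleted part is not known here.

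The 7 listed B cell genes were covered by weak peaks, mostly outside their start sites. The 87 peaks held a median of 13 reads over the 6 libraries, against 14 for all peaks, and 96.6% of them were under 30 reads, against 90.0% of all peaks. They lay in introns (71), coding exons (8), transcript ends (3), 5' UTR exons (2), a 3' UTR exon (1) and at start sites (2). Only Cr2 and Fcer2a had a start-site peak, 2 of the 7 genes with a peak, against 13799 of all 19109 genes with a peak, where the strongest held a median of 115 reads.

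Ms4a1 and Cd79a, both common B cell markers, had no listed peak. The lack at Cd79a did not extend to its surroundings: the start-site peaks of its neighbours Rps19 and Arhgef1 held 444 and 114 reads. At Ms4a1 the neighbours Ms4a12 and Ms4a5 carried no listed peak either. Most of the other members had at least 1 neighbour with a stronger start site than any of their own peaks. Rnf145 beside Ebf1 held 109 reads, Cr1l beside Cr2 held 372 reads, Slc39a8 and Ppp3ca beside Bank1 held 385 and 327, Zcchc7 and Melk beside Pax5 held 283 and 65 (its own strongest peak held 128) and Trappc5 beside Fcer2a held 184. Gh beside Cd79b held 21 reads, against 20 in the peak of Cd79b, and Ffar1 and Mag beside Cd22 had no start-site peak listed. Fewer B cells in a library and less open chromatin per B cell cannot be told apart in such bulk data.

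Ebf1, the factor that starts the B cell program, had 18 peaks and 214 reads on chromosome 11 (mm9, 44431602 to 44821599). It held 51, 24 and 19 reads in KO Tfh4, KO Tfh214 and KO Tfh21, against 45, 53 and 22 reads in WT Tfh4, WT Tfh214 and WT Tfh21. Scaled to depth these were 41.2, 30.1 and 18.1 CPM in KO, and 32.8, 41.7 and 19.6 CPM in WT. In point values both Tfh21 libraries were thus lowest, but counting error left overlap. The Poisson 95% interval of KO Tfh214 was 19.3 to 44.7 CPM, against 10.9 to 28.2 in KO Tfh21 and 12.3 to 29.7 in WT Tfh21. The share of all genes in such an order was not counted. The reads were spread thinly, with 10 to 20 in each peak. The strongest peak, in intron 15 (44812751 to 44813461, 381149 bases from the TSS), held 20 reads, and a peak in a 5' UTR exon, 282 bases from the TSS, held 13.

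Pax5, which keeps B cells committed, had 27 peaks and 540 reads on chromosome 4 (mm9, 44544378 to 44723313). It held 66, 59 and 74 reads in KO Tfh4, KO Tfh214 and KO Tfh21, against 127, 128 and 86 reads in WT Tfh4, WT Tfh214 and WT Tfh21. In CPM these were 53.3, 73.9 and 70.4 in KO, and 92.5, 100.6 and 76.6 in WT. In point values all KO libraries lay below all WT libraries, and the gap was narrowest in Tfh21. The Poisson 95% intervals of KO Tfh214 (56.2 to 95.3 CPM) and WT Tfh21 (61.3 to 94.6 CPM) overlapped. The share of all genes in such an order was not counted. A peak in intron 6 (44637347 to 44638063, 85250 bases from the TSS) held 128 reads, or 23.7% of the reads of Pax5. Among the 87 peaks it alone averaged at least 20 reads a library, as did 540 of 79816 intron peaks, or 0.677%. Its reads were 20, 15 and 17 in KO Tfh4, KO Tfh214 and KO Tfh21, against 24, 26 and 26 in WT Tfh4, WT Tfh214 and WT Tfh21. Its levels were 16.1, 18.8 and 16.2 CPM in KO and 17.5, 20.4 and 23.2 CPM in WT. They overlapped between KO and WT, unlike the point values of the whole gene. The Pax5 peak nearest to the start lay in the first intron, 999 bases from it, with 14 reads. A further 4 peaks with 79 reads lay within the span of Pax5 under other symbols (5730488B01Rik and Mir5120) and were not counted.

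**Figure D1:**
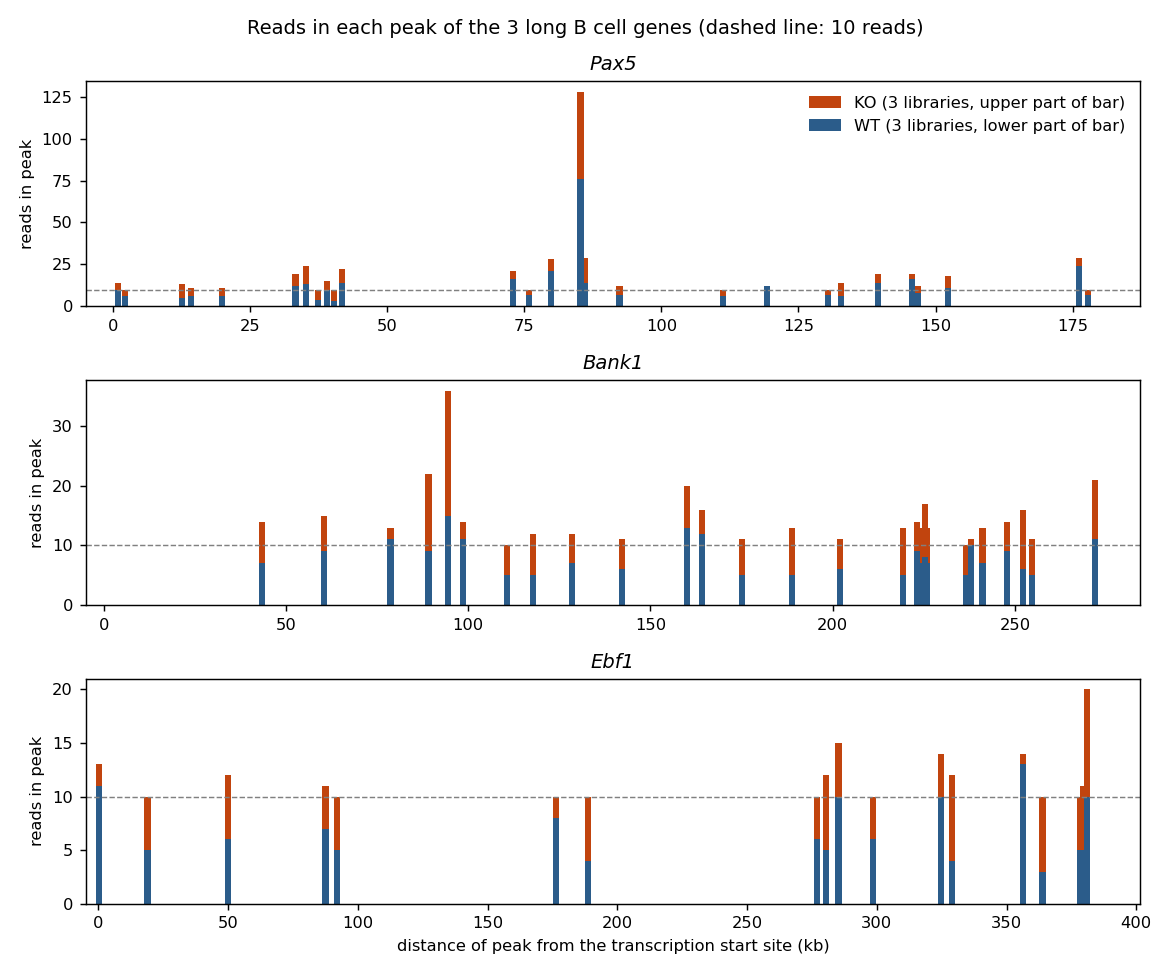
Reads in each listed peak of Pax5, Bank1 and Ebf1, summed over the 6 libraries, against distance from the transcription start site in kb. Each bar is a peak, with KO reads stacked on top of WT reads; the dashed line marks the minimum of 10 reads. The intron 6 peak of Pax5, at 128 reads, stands above all others, and the strongest of Bank1 and Ebf1 hold 36 and 20 reads.

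Of the B cell receptor genes, Bank1 gave the most reads, 420 in 29 peaks on chromosome 3 (mm9, 135716328 to 135989031), and no peak at its start site. It held 99, 45 and 49 reads in KO Tfh4, KO Tfh214 and KO Tfh21, against 102, 67 and 58 reads in WT Tfh4, WT Tfh214 and WT Tfh21. In CPM these were 79.9, 56.4 and 46.6 in KO, and 74.3, 52.7 and 51.7 in WT. In point values both Tfh4 libraries stood above the other 4, and KO and WT overlapped. The Poisson 95% intervals of KO Tfh4 (65.0 to 97.3 CPM) and KO Tfh214 (41.1 to 75.4 CPM) overlapped too. The strongest Bank1 peak, in intron 5 (135893273 to 135894488), held 36 reads, of which 16 were in KO Tfh4 and 1 to 7 in each other library.

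Cd79b had a single peak of 20 reads in coding exon 2 (chromosome 11, mm9, 106174595 to 106175106), 771 bases from the TSS. It held 6, 1 and 2 reads in KO Tfh4, KO Tfh214 and KO Tfh21, against 6, 2 and 3 reads in WT Tfh4, WT Tfh214 and WT Tfh21. Cd22 had 2 peaks of 14 and 10 reads in coding exon 5 and a 3' UTR exon (chromosome 7), and every KO library held 3 of these reads and every WT library 5. At such counts no difference short of several-fold could be detected: the Tfh4 to Tfh21 ratio of Cd79b was 2.0, with a 95% counting interval of 0.655 to 7.24.

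Fcer2a, the CD23 gene, had 6 peaks and 92 reads on chromosome 8 (mm9, 3681737 to 3694175). It held 23, 10 and 10 reads in KO Tfh4, KO Tfh214 and KO Tfh21, against 26, 10 and 13 reads in WT Tfh4, WT Tfh214 and WT Tfh21. These were 18.6, 12.5 and 9.51 CPM in KO and 18.9, 7.86 and 11.6 CPM in WT, so both Tfh4 libraries were highest, at nearly the same level. Its strongest peak lay in a 5' UTR exon (3692702 to 3693455) with 25 reads, 10 of them in KO Tfh4. Its start-site peak (3691064 to 3691517) held 13 reads, 5, 2 and 2 in KO Tfh4, KO Tfh214 and KO Tfh21 and 1, 1 and 2 in WT Tfh4, WT Tfh214 and WT Tfh21. That peak began 202 bases upstream of the second of 3 annotated starts, the nearest to it. The deposited annotation gives its TSS distance as -673 bases, which refers to the third start, 471 bases further on.

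Cr2, the CD21 gene, had 4 peaks and 74 reads on chromosome 1 (mm9, 196963005 to 197002910). Its start-site peak (197002731 to 197003040) covered the TSS and was, at 34 reads, the strongest start-site peak of the 9 genes. It held 7, 1 and 5 reads in KO Tfh4, KO Tfh214 and KO Tfh21, against 5, 10 and 6 reads in WT Tfh4, WT Tfh214 and WT Tfh21. Over all its peaks Cr2 held 14, 6 and 9 reads in KO Tfh4, KO Tfh214 and KO Tfh21, against 17, 14 and 14 in WT Tfh4, WT Tfh214 and WT Tfh21, or 7.51 to 11.3 CPM in KO and 11 to 12.5 CPM in WT. KO and WT overlapped slightly, and WT Tfh21 was the highest of the 6 with WT Tfh4 next to it. The promoters beside these 2 start-site peaks are shown because no other member had a peak annotated at its start site; they are RefSeq sequences of build GRCm38.p6, minus strand, chr1:195176670-195176969 for Cr2 and chr8:3690812-3691111 for the second start of Fcer2a. Capitals mark the core of ETS factor sites, GGAA on either strand.
Cr2 promoter: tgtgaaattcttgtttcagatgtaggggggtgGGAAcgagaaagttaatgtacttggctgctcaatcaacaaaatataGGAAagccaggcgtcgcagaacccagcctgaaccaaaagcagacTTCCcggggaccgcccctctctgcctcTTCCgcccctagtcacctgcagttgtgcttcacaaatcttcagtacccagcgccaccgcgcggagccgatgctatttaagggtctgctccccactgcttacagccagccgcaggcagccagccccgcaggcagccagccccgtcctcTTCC
Fcer2a second-start promoter: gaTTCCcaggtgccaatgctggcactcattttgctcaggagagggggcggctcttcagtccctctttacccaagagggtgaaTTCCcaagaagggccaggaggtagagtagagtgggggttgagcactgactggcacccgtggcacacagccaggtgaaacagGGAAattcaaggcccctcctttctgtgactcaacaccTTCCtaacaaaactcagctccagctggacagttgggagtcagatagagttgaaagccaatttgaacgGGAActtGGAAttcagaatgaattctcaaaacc
They held 5 and 6 such cores, a motif found in 96.0% of 32851 RefSeq promoters, and 14 and 3 CpG dinucleotides, where the median promoter held 7. Promoters of 7 of the 9 genes were in the table (not Ms4a1 and Cd79b). An EBF palindrome, TCCCNNGGGA, which reads the same on both strands, was found in the promoter of Cd22 and in no other of theirs, and in 0.904% of all promoters. The octamer ATGCAAAT, searched on both strands, was in none of theirs and in 1.74% of all.

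**Figure D2:**
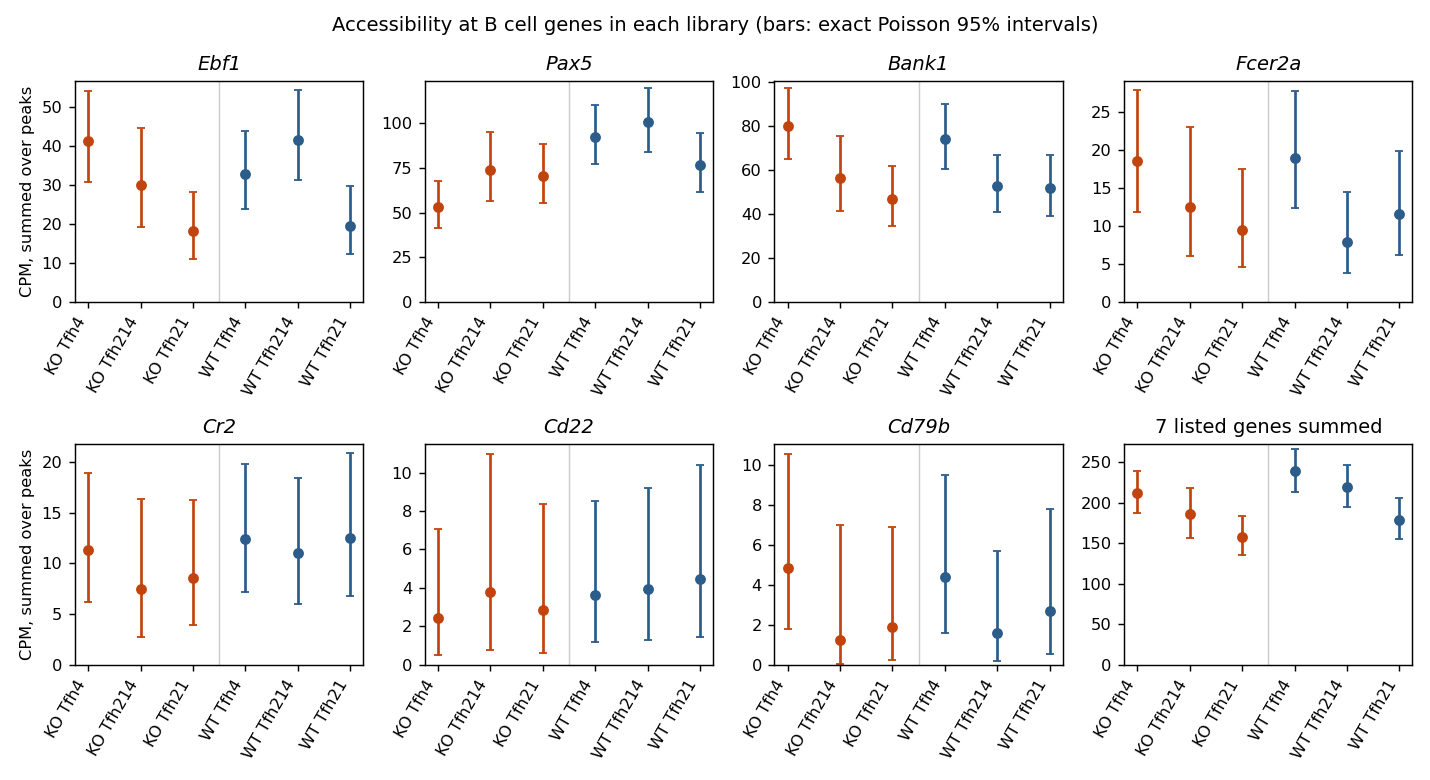
CPM summed over the peaks of each gene in the 6 libraries, KO (orange) left of WT (blue), with exact Poisson 95% intervals. The last panel sums the 7 listed genes and runs between 157.9 CPM in KO Tfh21 and 238.9 CPM in WT Tfh4.

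Per length of peak, the B cell genes were far below T cell genes and close to genes of unrelated tissues. Their median was 33.9 reads per kb of listed peak over the 6 libraries, against 91.4 for 20 T cell genes, 103.8 for 10 Tfh genes and 56.6 for all genes. Of 16 genes specific to liver, muscle, brain and other tissues 13 had a peak, with a median of 30.9, and 15 long genes chiefly of brain, such as Macrod2 and Ptprd, had 29.5. Cr2 was highest of the 7 at 49.1 reads per kb, followed by Pax5 (41.4), Cd79b (39.1), Cd22 (33.9), Fcer2a (31.0), Bank1 (27.5) and Ebf1 (24.5). Of all genes, 44.7% were below Cr2 on this scale and 3.82% below Ebf1. Since listed peaks start at 10 reads, this density cannot reach 0 even at a closed gene.

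Pooled over whole gene spans, the 7 genes lay between the long genes and the other-tissue genes. They had 9.54 peaks per 100 kb, against 8.67 for the long genes, 13.3 for the other-tissue genes, 41.4 for Tfh genes and 44.9 for T cell genes. In reads per kb of gene they stood at 1.52, against 1.32 for the long genes, 2.02 for the other-tissue genes, 12.0 for T cell genes and 18.01 for Tfh genes. As medians over genes the order differed, at 1.85 for the 7 genes, 1.74 for the other-tissue genes and 1.32 for the long genes. The median of all genes on this scale was 6.69. Single genes varied widely, from 0.549 to 7.40 among the 7 and from 0.486 to 12.3 among the other-tissue genes. No test is given for these densities, because the peaks of a gene share their libraries.

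**Figure D3:**
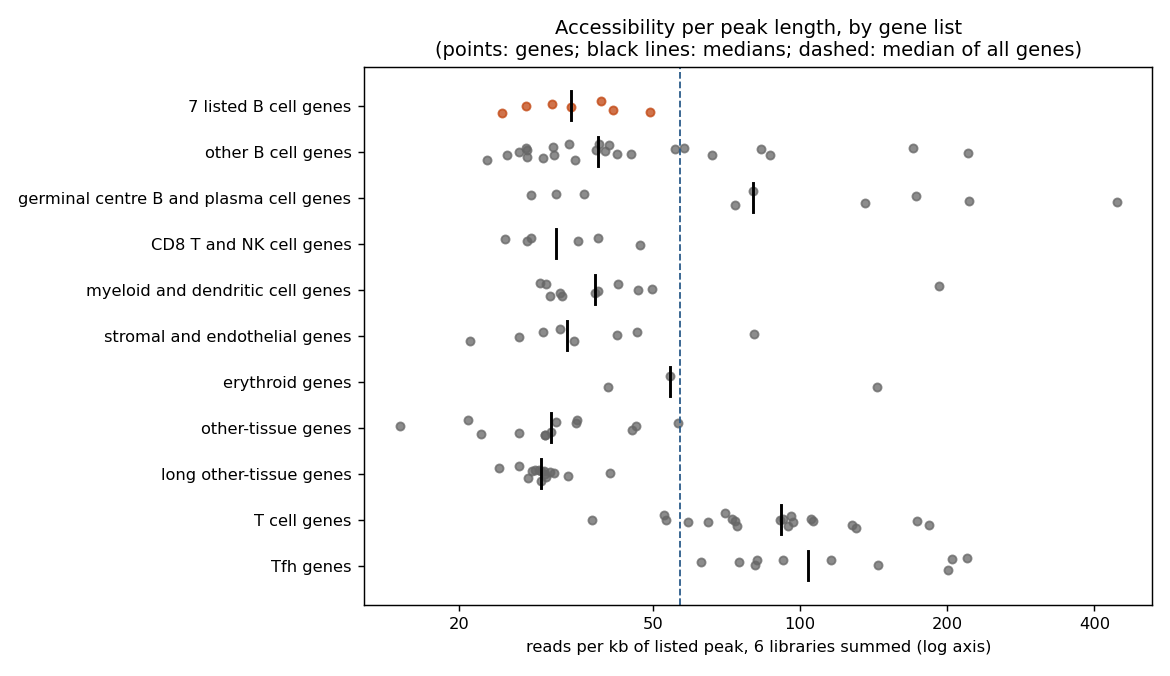
Reads per kb of listed peak, 6 libraries summed, on a log axis; each point is a gene, black lines are list medians, and the dashed line is the median of all genes (56.6). The 7 listed B cell genes, at 24.5 to 49.1, lie left of that line, where the other-tissue lists also lie, while T cell and Tfh lists centre at 91.4 and 103.8.

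Of 30 other B cell genes, 24 had a listed peak, with a median of 38.5 reads per kb. Unlike most of the 7 genes above, 15 of these 24 had a start-site peak. The strongest start-site peak per gene held a median of 19 reads and at most 245. Under the symbols Vpreb3, Ly6d, Faim3, Siglecg, Igll1 and Vpreb1 no peak of any kind was listed. The genes with the most reads in that list, Pou2af1 (445 reads) and Plcg2 (262 reads), encode a coactivator that Tfh cells also use and a phospholipase of many blood cells. Germinal centre B and plasma cell genes were denser, at a median of 80.2 reads per kb, led by Mybl1 (408 reads) and Derl3 (259 reads). Of 9 such genes with a listed peak 6 had a start-site peak, with a median of 69 reads in the strongest one.

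Markers of other cells that a sort could hold were also sparse, with the erythroid list densest. CD8 T and NK cell genes had a median of 31.6 reads per kb, with Klrb1c (67 reads) and Cd8b1 (61 reads) leading and no listed peak at Cd8a or Ncr1. Myeloid and dendritic cell genes stood at 38.0 (Zbtb46, 455 reads, and Cebpa, 319 reads), stromal and endothelial genes at 33.3 (Pecam1, 360, and Pdgfra, 169) and 3 listed erythroid genes at 54.2 (Klf1, 195 reads). Among the other-tissue genes Snap25, a gene of neurons, led with 138 reads.

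Ebf1, Bank1 and Fcer2a had more reads for the depth in Tfh4 than in Tfh21 libraries. With the genotypes pooled, the CPM ratio of Tfh4 over Tfh21 was 1.95 for Ebf1 (exact binomial 95% interval 1.34 to 2.88; 96 and 41 reads), 1.56 for Bank1 (1.23 to 2.0; 201 and 107 reads) and 1.77 for Fcer2a (1.06 to 3.05; 49 and 23 reads). Pax5 stood at 1.0 (0.81 to 1.25; 193 and 160 reads), and Cr2 stood at 1.12 (0.633 to 2.01). Such an interval holds counting error alone and treats PCR duplicates as separate molecules. For 3 of the 7 genes the interval lay above 1, as it did for 5.99% of 17009 genes with at least 20 reads, and for 0 of 7 it lay below 1, against 7.4% of genes. With median-of-ratios scaling, which aligns the libraries at the typical gene, the same 3 genes lay above 1, where 9.91% of all genes then lay above and 2.36% below.

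The ratio of Ebf1 was 2.28 in KO (1.32 to 4.09) and 1.67 in WT (0.983 to 2.92), and that of Bank1 was 1.71 in KO (1.21 to 2.47) and 1.44 in WT (1.03 to 2.02). Both thus had Tfh4 above Tfh21 in each genotype. Fcer2a ran the same way, at 1.95 in KO (0.894 to 4.59) and 1.64 in WT (0.81 to 3.47), but its pooled interval reached below 1 without KO Tfh4 (1.79, 0.982 to 3.28), KO Tfh21 (1.62, 0.866 to 3.26), WT Tfh4 (1.75, 0.941 to 3.27) or WT Tfh21 (1.97, 0.987 to 4.37). Pax5 gave 0.757 in KO (0.535 to 1.07) and 1.21 in WT (0.911 to 1.61), and 0.724 pooled without WT Tfh4 (0.535 to 0.970). Of the 87 peaks, 59 (67.8%) were higher in Tfh4 than in Tfh21, among them 15 of 18 at Ebf1, 20 of 29 at Bank1 and 15 of 27 at Pax5; of all peaks under 30 reads 58.7% were. Peak by peak, the interval lay above 1 at 5 of the 87, or 5.75%, against 2.58% of all peaks, and below 1 at 1, or 1.15%, against 2.07%. At the long other-tissue genes these shares were 2.74% above and 2.02% below.

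Weak peaks as a whole leaned the same way, by less. Tfh4 over Tfh21 was 1.15 over all peaks of 30 reads or fewer, 1.09 over all intron peaks and 1.11 over the long other-tissue genes (1.08 to 1.14), while start-site peaks stood at 0.844 and T cell genes at 0.869. The median log2 ratio was 0.63 over the 7 genes, with 6 of 7 above 0, against 0.20 over the long genes (13 of 15 above 0), 0.26 over 22 other B cell genes (13 above 0) and -0.06 over all genes. Among the 6, Pax5 lay only just above 0. Relative to the long genes, Ebf1 stood at 1.76 (1.21 to 2.60), Bank1 at 1.41 (1.11 to 1.80) and Fcer2a at 1.6 (0.955 to 2.75), whose interval then included 1. Markers of CD8 T and NK cells leaned with this too. Of 8 such genes 6 had a peak (Cd8a and Ncr1 had none). They summed to 37.1 CPM in KO Tfh4 and 33.5 CPM in WT Tfh4, against 25.7 CPM in KO Tfh21 and 22.3 CPM in WT Tfh21. Their pooled ratio was 1.47 (1.04 to 2.11). Stromal and endothelial genes ran the same way in both genotypes. They stood at 128 and 146 CPM in KO and WT Tfh4, against 109 and 129 CPM in KO and WT Tfh21. Erythroid genes did so too, at 44.4 and 51.7 CPM in KO and WT Tfh4, against 38.1 and 43.6 CPM in KO and WT Tfh21. Myeloid and dendritic cell genes were split by genotype. Theirs were 192 and 184 CPM in KO and WT Tfh4, against 180 and 207 CPM in KO and WT Tfh21. The 24 listed other B cell genes summed to 379 and 384 CPM in KO and WT Tfh4, against 356 and 353 CPM in KO and WT Tfh21 (1.08, 0.979 to 1.18). The germinal centre B and plasma cell genes ran the other way, at 215 and 195 CPM in KO and WT Tfh4, against 247 and 235 CPM in KO and WT Tfh21 (0.848, 0.751 to 0.959). The part of these in the B cell result was not tested.

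Summed over the 7 genes, Tfh4 over Tfh21 was 1.34 (1.17 to 1.53; 590 and 367 reads), 1.6 without Pax5 (1.35 to 1.90), and 1.21 relative to the long genes (1.06 to 1.38). Within genotypes the sum gave 1.34 in KO (1.10 to 1.64) and 1.33 in WT (1.12 to 1.6). The long genes themselves gave 1.29 in KO (1.24 to 1.35) and 0.985 in WT (0.95 to 1.02), so relative to them the sum was 1.04 in KO (0.850 to 1.27) and 1.36 in WT (1.13 to 1.62). As a share of all reads, the 7 genes took 0.0212% in KO Tfh4, 0.0185% in KO Tfh214 and 0.0158% in KO Tfh21, and 0.0239%, 0.0219% and 0.0179% in the WT libraries in the same order.

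In the additive limma model of genotype and population, no B cell gene passed the threshold. The model was fitted to log2(CPM + 1) over 10825 genes with a mean of at least 20 reads, a minimum that Ebf1, Pax5 and Bank1 met and the other 4 listed genes did not. For Tfh4 minus Tfh21, Ebf1 stood at a log2 difference of 0.93 ± 0.25 (SE, limma adjusted p = 0.223), Bank1 at 0.64 ± 0.17 (adjusted p = 0.223) and Pax5 at -0.06 ± 0.16 (adjusted p = 0.881). The model called 0 of these 3 and 0 of all genes, that is 0% (1377 genes passed 0.05 before adjustment), while edgeR called 1 gene and DESeq2 called 0 (1161 and 109 before adjustment). Without the WT Tfh4 library, Ebf1 was called (log2 1.23 ± 0.33, adjusted p = 0.0362), as were 121 genes in all, and over all libraries left out in turn its difference ran between 0.63 and 1.23. Residual spread here is over populations and genotypes, with 2 degrees of freedom, not over animals.

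**Figure D4:**
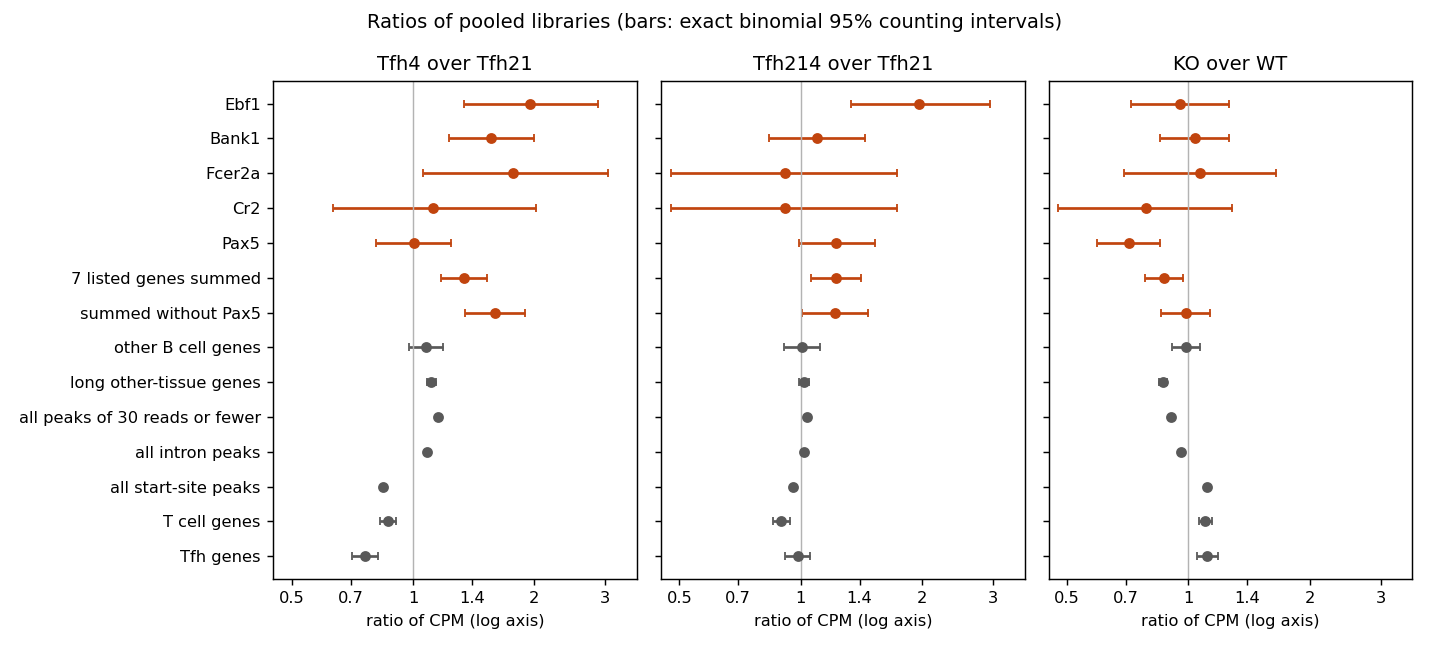
CPM ratios of pooled libraries on a log axis, for Tfh4 over Tfh21, Tfh214 over Tfh21 and KO over WT, with exact binomial 95% counting intervals; B cell genes are orange and comparison sets grey. Ebf1 lies near 2-fold in both population panels, while Pax5 lies at 1.0 in the first and at 0.712 in the last.

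Tfh214 cells had more Ebf1 reads than Tfh21 cells, with no detectable difference at Bank1. Tfh214 over Tfh21 was 1.97 for Ebf1 (1.33 to 2.96; 77 and 41 reads), with 1.66 in KO (0.873 to 3.21) and 2.13 in WT (1.27 to 3.67), and 16 of its 18 peaks were higher in Tfh214, as were 55.8% of all peaks under 30 reads. This comparison shares its Tfh21 libraries with the one above. Without WT Tfh214 the ratio of Ebf1 was 1.59 (0.921 to 2.70). Pax5 stood at 1.23 (0.988 to 1.53), Bank1 at 1.10 (0.836 to 1.45), and Fcer2a and Cr2 both at 0.913 (0.476 to 1.74). The interval of Pax5 excluded 1 with median-of-ratios scaling (1.26, 1.02 to 1.57) and without KO Tfh214 (1.37, 1.08 to 1.74). For 1 of 7 genes the interval lay above 1, against 3.13% of all genes (4.09% with median-of-ratios scaling), and for 0 below 1, against 3.08% (2.02%). Among the 87 peaks, 2 lay above 1, or 2.3% against 1.61% of all peaks, and 0 below, against 1.91%. For peaks of the long other-tissue genes the shares were 1.54% above and 2.16% below.

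The sum over the 7 genes was 1.22 in Tfh214 over Tfh21 (1.06 to 1.41), with the long genes at 1.02 (0.991 to 1.05). Without WT Tfh214 it was 1.10 (0.901 to 1.33), and without KO Tfh21 1.15 (0.972 to 1.37). In limma, Ebf1 stood at 0.88 ± 0.25 (adjusted p = 0.867), Pax5 at 0.23 ± 0.16 (adjusted p = 0.981) and Bank1 at 0.15 ± 0.17 (adjusted p = 0.996). The count of calls was 0 of these 3 and 0% of all genes in limma, with 552 that passed 0.05 before adjustment, and edgeR and DESeq2 called 0 (487 and 9 before adjustment).

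Set directly against Tfh214, Tfh4 had more reads at Bank1 and Fcer2a. The ratio of Tfh4 over Tfh214 was 1.42 for Bank1 (1.12 to 1.81; 201 and 112 reads) and 1.94 for Fcer2a (1.13 to 3.45; 49 and 20 reads), against 0.988 for Ebf1 (0.725 to 1.35) and 0.818 for Pax5 (0.666 to 1.01). Without WT Tfh214 the intervals of both genes reached below 1, at 1.37 for Bank1 (0.984 to 1.93) and 1.5 for Fcer2a (0.750 to 3.32). The intron 5 peak of Bank1 held 23 reads in Tfh4 and 3 in Tfh214 (6.08, 1.84 to 31.6). For 2 of 7 genes the interval lay above 1, against 4.89% of all genes (7.07% with median-of-ratios scaling), and for 0 below 1, against 5.13% (2.87%). Of the 87 peaks 5 lay above 1, or 5.75% against 2.99% of all, and 3 below, or 3.45% against 2.36%. Of the peaks of the long other-tissue genes 4.18% lay above and 2.6% below. Pax5 changed its side of the interval by setting: it was 0.752 relative to the long genes (0.611 to 0.924), 0.590 without WT Tfh4 (0.439 to 0.785) and 0.734 without KO Tfh214 (0.584 to 0.925). The sum over the 7 genes was 1.10 (0.965 to 1.24), and its interval lay above 1 with median-of-ratios scaling (1.15, 1.01 to 1.3) and without WT Tfh214 (1.22, 1.02 to 1.47).

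The limma differences for Tfh4 minus Tfh214 were 0.49 ± 0.17 for Bank1 (adjusted p = 0.390), -0.29 ± 0.16 for Pax5 (adjusted p = 0.564) and 0.05 ± 0.25 for Ebf1 (adjusted p = 0.963). Of the 3, 0 were called, as were 0% of all genes (1093 before adjustment), with 0 calls also in edgeR and DESeq2 (983 and 43 before adjustment).

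Between genotypes, Pax5 had fewer reads in KO and the other B cell genes did not differ detectably. Pooled over populations, KO over WT was 0.712 for Pax5 (0.595 to 0.850; 199 and 341 reads). By population it was 0.576 in Tfh4 (0.421 to 0.782), 0.734 in Tfh214 (0.530 to 1.01) and 0.919 in Tfh21 (0.664 to 1.27). Of its 27 peaks 8 (29.6%) were higher in KO, against 45.2% of all peaks under 30 reads, and 4 had an interval below 1. Over all 87 peaks 6 did, or 6.9%, against 4.04% of all peaks and 5.87% of those of the long other-tissue genes. Above 1 lay 1 of the 87, or 1.15%, against 1.93% of all peaks and 1.01% of those of the long genes. The intron 6 peak alone stood at 0.835 (0.575 to 1.20), and the rest of Pax5 at 0.677 (0.549 to 0.831). A peak in intron 9 (chromosome 4, mm9, 44546126 to 44547110), picked after its values were seen, held 0, 2 and 3 reads in KO Tfh4, KO Tfh214 and KO Tfh21, against 7, 11 and 6 in WT Tfh4, WT Tfh214 and WT Tfh21.

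Fcer2a, the gene known to respond to STAT6 in B cells, gave 1.07 in KO over WT (0.694 to 1.65; 43 and 49 reads), so a change beyond that interval was not seen. The cells were sorted Tfh cells and its start-site peak held 13 reads in all, so this cannot decide on a response in B cells. In KO over WT, Ebf1 stood at 0.956 (0.722 to 1.26), Bank1 at 1.04 (0.852 to 1.26), Cr2 at 0.786 (0.475 to 1.28), Cd22 at 0.732 (0.282 to 1.79) and Cd79b at 0.998 (0.366 to 2.65). The interval lay below 1 for 1 of 7 genes, as it did for 5.17% of all genes, and above 1 for 0 of 7, against 5.93%. With median-of-ratios scaling these shares of all genes were 7.75% below and 2.7% above.

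Pooled over populations, weak signal as a whole was lower in KO libraries, but single libraries overlapped. At the long genes KO Tfh4 (4775 CPM) stood above WT Tfh214 (4704 CPM), though within each population KO was below WT. KO over WT was 0.865 over the long genes (0.846 to 0.884), 0.906 over all peaks of 30 reads or fewer and 1.11 over start-site peaks. Relative to the long genes Pax5 stood at 0.823 pooled (0.688 to 0.983), and at 0.599 in Tfh4 (0.438 to 0.813), 0.838 in Tfh214 (0.605 to 1.15) and 1.25 in Tfh21 (0.907 to 1.73). The sum over the 7 genes was 0.870 (0.780 to 0.969) as deposited, 0.938 without KO Tfh21 (0.831 to 1.06), 0.930 without WT Tfh4 (0.823 to 1.05), 0.985 without Pax5 (0.858 to 1.13) and 1.01 relative to the long genes (0.902 to 1.12). The genotypes also differ in the mice pooled and the library made, which cannot be told apart from them.

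In limma, KO minus WT was -0.45 ± 0.13 for Pax5 (adjusted p = 0.260), -0.08 ± 0.20 for Ebf1 (adjusted p = 0.908) and 0.02 ± 0.14 for Bank1 (adjusted p = 0.978). The call rate over all genes was 0.0554% (6 genes, and 1202 before adjustment), and 0 of the 3 were called. Peak by peak, the same model covered 8986 peaks and called 0.857% of them for KO minus WT, 1.31% for Tfh4 minus Tfh21, 0% for Tfh214 minus Tfh21 and 1.98% for Tfh4 minus Tfh214. All calls were higher in KO in the first, and lower in Tfh4 in both comparisons of Tfh4. Of the 8986 peaks, 85.9% stood above 0 for KO minus WT, 7.87% for Tfh4 minus Tfh21 and 13.5% for Tfh4 minus Tfh214. With median-of-ratios scaling these 3 comparisons had 2, 0 and 0 calls. Of the B cell peaks the model covered the intron 6 peak of Pax5 alone, which was called in none of the 4 comparisons as deposited (KO minus WT log2 -0.24 ± 0.23, limma adjusted p = 0.543). Whether the population ratios differed between genotypes was tested for each of the 7 genes by an exact test of 4 counts. The smallest of 21 p-values was 0.0380, for Pax5 in Tfh4 over Tfh21 (KO ratio 0.627 of the WT ratio), and 0.798 after Benjamini-Hochberg adjustment.

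The genes whose levels followed the summed B cell genes most closely over the 6 libraries were Map3k20 (Pearson r = 0.992), Elf5 (0.984) and Col26a1 (0.983), among 10822 genes with a mean of at least 20 reads. This is a description over 6 libraries that share their depth differences. None of these 3 belongs to the lists of B cell genes used here.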

How the data were processed

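Members and gene lists were chosen with earlier results of these data known, so a pattern already seen there is no independent support. Open chromatin was measured in 6 mouse Tfh libraries, 1 for each genotype and population. The authors deposited CPM values for a common list of peaks; in each library they sum to 1000000. The submitters' processing notes name Bowtie 1.3.0, MACS2 2.0, HOMER and mm9, without roles. Whether peaks were called on pooled libraries, how duplicates were treated and whether cut sites were shifted is not stated in those sources. The deposited table gives, per the file headers, a position, section and TSS distance for each peak, and 148063 peaks carry a symbol.

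Whole reads were recovered from the value of 1 read per library; at most 3 values in a library lay over 0.02 reads from a whole number. Peaks were summed per gene. Levels carry exact Poisson and ratios exact binomial 95% intervals. The main test was limma 3.58.1 with a variance trend on log2(CPM + 1), genotype plus population, genes with a mean of at least 20 reads, Benjamini-Hochberg threshold 0.05; the fold scale understates changes of low genes. edgeR 4.0.16 and DESeq2 1.42.0 on recovered reads, median-of-ratios scaling, other pseudocounts, minimums and peak choices, and each library left out were alternatives. The fits were tested on simulated data. All 9 members were named, with their strongest and start-site peaks, the top 2 genes by reads of each other list, and the 3 genes of highest r. Some genes that this rule would name are not reported here. Other features named were chosen after their values were seen. R 4.3.3, Python 3.11.15, numpy 2.4.6, scipy 1.17.1, pandas 2.3.3 and matplotlib 3.10.9 were used.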

Additional observations from a re-analysis of the deposited data

How the results depend on the processing

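Each group had 1 library, so counting error and single libraries set the limits; a fit without a library assumes that the lone library left varies like the others. Sums without Pax5 and ratios without a library were added after seeing the data. Of the log2 effects of Ebf1, Pax5 and Bank1 under other settings, 178 kept direction and side of the threshold, 17 reversed and 1 was newly called; of the pooled ratios 211 stayed within their intervals, 8 moved and 1 reversed. No paired analysis was possible because the labels give no replicate numbers beyond 1 library a group; the additive model itself compares populations within genotypes.

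Genes called for KO minus WT (6) became 11 with no minimum, 0 without the variance trend, 1 in DESeq2, 120 with the strongest peak only, 72 with start-site peaks and 3 with other peaks, and ran from 1 to 85 (85 without KO Tfh4, 83 without WT Tfh4) with a library left out. For Tfh4 minus Tfh21 (0) it was 1 with a pseudocount of 5, with no minimum or in edgeR, 222 with the strongest or start-site peaks, and 0 to 121 (121 without WT Tfh4). For Tfh214 minus Tfh21 (0) it was 0 to 8 with a library left out. For Tfh4 minus Tfh214 (0) it was 1 with no minimum, 182 with the strongest peak, 156 with start-site peaks and 0 to 15. At peak level the calls were 77, 118 and 178 for KO minus WT, Tfh4 minus Tfh21 and Tfh4 minus Tfh214; 2, 0 and 0 with median-of-ratios scaling, 0 in each without the trend, and 22, 19 and 33 with a minimum mean of 5 reads. Median-of-ratios scaling moved the gene median of Tfh4 minus Tfh21 to -0.01, against -0.11 as deposited. No member met the minimum with start-site peaks only. The cause was not tested.

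Without Pax5 the summed ratio was 1.6 for Tfh4 over Tfh21, 1.31 for Tfh4 over Tfh214 and 0.985 for KO over WT, which was 1.01 relative to the long genes. With a library left out the sums ran from 1.25 to 1.43 (Tfh4 over Tfh21), 1.10 to 1.31 (Tfh214 over Tfh21), 1.03 to 1.22 (Tfh4 over Tfh214) and 0.792 to 0.938 (KO over WT). Bank1 in KO minus WT was -0.054 with median-of-ratios scaling, -0.047 in DESeq2, -0.028 in edgeR and -0.025 to 0.10 with a library left out. Pax5 in Tfh4 minus Tfh21 was 0.044, 0.058 and 0.093 with median-of-ratios scaling, DESeq2 and edgeR, and -0.32 to 0.19 with a library left out; in Tfh214 minus Tfh21 it ran from -0.017 to 0.48. Ebf1 ran from -0.28 to 0.11 in KO minus WT and from -0.25 to 0.35 in Tfh4 minus Tfh214.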

Other observations

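Other B cell genes did not follow 1 pattern over the libraries. Of the 7 with a mean of at least 20 reads, limma called 0 in any of the 4 comparisons. Blnk, an adaptor of the B cell receptor named after its values were seen, had 29, 10 and 15 reads in KO Tfh4, KO Tfh214 and KO Tfh21, against 39, 25 and 11 in WT Tfh4, WT Tfh214 and WT Tfh21. Its log2 difference for Tfh4 minus Tfh21 was 1.06 ± 0.35 (limma adjusted p = 0.257), and that of Pou2af1 was -0.47 ± 0.17 (adjusted p = 0.275).

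Fcrla, a B cell gene also named after its values were seen, had 44 reads in a single start-site peak. They were 15, 3 and 3 in KO Tfh4, KO Tfh214 and KO Tfh21, against 12, 3 and 8 in WT Tfh4, WT Tfh214 and WT Tfh21, so both Tfh4 libraries were highest. The share of all genes in such an order was not counted. In the limma fit, 3 of the 7 other B cell genes covered had Tfh4 above Tfh21. The genes of antigen presentation Cd74 and H2-Ab1 (chosen after their values were seen) had start-site peaks of 69 and 84 reads. Over all genes with a start-site peak, the strongest one held a median of 115 reads.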
